A study of Homo sapiens with 9 samples.

Results

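The semaphorins, plexins, neuropilins, SLITs, ROBO receptors, netrins, UNC5 receptors, DCC and neogenin make up the classic families of guidance cues and their receptors. Members were taken as the protein-coding genes of the count table whose symbol belongs to one of these families, which gave 50 of 61487 genes. They comprised 20 semaphorins, 9 plexins, 2 neuropilins, 3 SLITs, 4 ROBO receptors, 4 netrins, the 4 UNC5 receptors, DCC and NEO1. The letters of the rule also took UNC50 and UNC5CL, which resemble the UNC5 receptors in name but are not netrin receptors, and these 2 genes are described apart. Another 13 genes that carry a family symbol are antisense or other non-coding transcripts and were left out.

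The RNA came from OVCAR4, an established human line of high-grade serous ovarian cancer whose genotype the labels give as wild type, in 3 groups of 3 libraries. Inhibitor-treated cells were Pt-resistant cells given 5 uM EPZ015666, a small-molecule inhibitor of the arginine methyltransferase PRMT5, for 5 days. Pt-resistant cells and naive cells were given DMSO, the solvent. The Pt-resistant cells are 1 derivative of the line, obtained by long platinum exposure, so resistance and the selection of that derivative cannot be told apart. Naive cells with the inhibitor were not analysed here. Replicates were wells of a plate. A p-value thus refers to variation among wells, some of which may be technical.

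Libraries held 14320929 to 19114811 counts. PRMT5 mRNA averaged 117 ± 10.6 CPM in inhibitor-treated, 117 ± 10.1 CPM in Pt-resistant and 121 ± 1.48 CPM in naive cells (SD, n = 3 each), where CPM is counts relative to the TMM-scaled library total. Of 10 markers of serous epithelium 9 passed the filter on low counts, and WT1 was near 0 at 0.223, 0.318 and 0.25 CPM in inhibitor-treated, Pt-resistant and naive cells. The 10 summed to 3137 to 3173 CPM in inhibitor-treated, 3788 to 3922 CPM in Pt-resistant and 3945 to 4211 CPM in naive libraries. At an adjusted p under 0.05 in edgeR's quasi-likelihood test, 1 of the 9 was higher and 6 lower in Pt-resistant over naive cells. With the inhibitor 3 were higher and 5 lower. In inhibitor-treated over naive cells 7 were lower and the other 2 did not pass. Beside these, 29.8% of all tested genes were higher and 29.4% lower in Pt-resistant over naive cells. The shares were 31.9% and 30.5% with the inhibitor, and 32.2% and 31.2% in inhibitor-treated over naive cells. The higher markers were KRT7 in Pt-resistant over naive cells and PAX8, FOLR1 and KRT18 with the inhibitor. CDH1, chosen after its values were seen, averaged 50.6 ± 5.10 CPM in inhibitor-treated, 74.2 ± 5.34 CPM in Pt-resistant and 167 ± 11.5 CPM in naive cells, and EPCAM, chosen likewise, 247 ± 2.96, 330.5 ± 24.1 and 519 ± 54.5 CPM in the same order (SD, n = 3). Endothelial markers matter here because several guidance receptors are known from vessels. The sum of 8 endothelial markers ran from 90.1 to 104 CPM in inhibitor-treated, 128.5 to 136 CPM in Pt-resistant and 146 to 166 CPM in naive libraries. Nearly all of it came from PECAM1 and CDH5, while CLDN5 was at 0 in all 9 libraries and EMCN and TEK were at or under 0.107 CPM in every group. The 8 neuronal and glial markers summed to 15 to 18 CPM in inhibitor-treated, 4.63 to 5.97 CPM in Pt-resistant and 3.41 to 4.91 CPM in naive libraries, mainly from SNAP25, with STMN2 and SOX10 among those at 0. Fibroblast markers summed to at most 14.9 CPM and immune markers to at most 6.75 CPM in any library, both highest with the inhibitor. In bulk RNA, fewer cells of a type and less RNA per cell cannot be told apart, and the part of these markers in the results below was not tested.

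Semaphorins are secreted or membrane-bound proteins that turn the growth of axons, vessels and migrating cells. Most bind plexins, whose intracellular domain acts on small GTPases, and the secreted class 3 semaphorins usually need a neuropilin as the binding partner. SLITs act through ROBO receptors, and netrins through DCC, neogenin and UNC5 receptors, the last of which are known as dependence receptors that can trigger cell death when no ligand is bound. In epithelial cancers the same proteins are known for roles in migration, vessel growth and survival.

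Promoter windows from RefSeq, of 300 bases each from 250 bases before to 50 bases after an annotated start, matched 42 of the 50 members with 68 windows in all on build GRCh38.p14. NRP1, NTN1, NTN3, SEMA3A, SEMA6A, SEMA6B, UNC5B and UNC5D were not matched. A GC box (GGGCGG, either strand, overlapping matches counted) lay in 45 of the 68 windows, 66.2%, against 45.0% of all 35116 windows. Median GC content was 65.2% in the members' windows and 58.7% in all windows. Other short motifs were less frequent in the members than in all windows. The E-box CACCTG lay in 11 windows, 16.2% against 20.6%, the antioxidant response element core TGACNNNGC in 6, 8.82% against 13.3%, the AP-1 site TGANTCA in 1, 1.47% against 7.71%, and TATAAA in 1, 1.47% against 11.5%. These are matches of letters and not binding sites. Windows of 4 members are shown for genes that the results turn on, with the GC boxes in capitals. NRP2 had the largest increase in Pt-resistant over naive cells and SEMA4G the largest decrease on the log2 scale. PLXND1 had the largest decrease in CPM, and the SEMA3F window held 12 GC boxes, against 9 in PLXND1, 3 in NRP2 and 2 in SEMA4G. SEMA4G and SEMA3F have further windows that are not shown.

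NRP2 at chr2:205682251-205682550, plus strand: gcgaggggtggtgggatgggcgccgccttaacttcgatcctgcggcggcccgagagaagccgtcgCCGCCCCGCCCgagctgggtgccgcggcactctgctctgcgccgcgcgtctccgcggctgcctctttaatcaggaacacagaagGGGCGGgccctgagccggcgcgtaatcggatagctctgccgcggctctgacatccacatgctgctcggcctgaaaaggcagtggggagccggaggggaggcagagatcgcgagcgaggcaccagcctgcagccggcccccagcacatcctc
SEMA4G at chr10:100969254-100969553, plus strand: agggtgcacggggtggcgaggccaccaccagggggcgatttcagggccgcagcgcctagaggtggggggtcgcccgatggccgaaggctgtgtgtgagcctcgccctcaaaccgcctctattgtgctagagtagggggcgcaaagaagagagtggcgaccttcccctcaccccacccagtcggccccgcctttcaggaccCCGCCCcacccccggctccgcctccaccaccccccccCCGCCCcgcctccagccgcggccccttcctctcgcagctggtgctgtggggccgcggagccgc
PLXND1 at chr3:129606627-129606926, minus strand: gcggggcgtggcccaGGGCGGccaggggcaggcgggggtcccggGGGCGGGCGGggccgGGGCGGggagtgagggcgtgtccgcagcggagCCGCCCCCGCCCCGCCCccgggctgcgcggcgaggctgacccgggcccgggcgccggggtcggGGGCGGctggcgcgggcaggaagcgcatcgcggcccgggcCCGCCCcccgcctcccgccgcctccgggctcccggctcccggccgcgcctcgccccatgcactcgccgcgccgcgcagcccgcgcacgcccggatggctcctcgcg
SEMA3F at chr3:50154808-50155107, plus strand: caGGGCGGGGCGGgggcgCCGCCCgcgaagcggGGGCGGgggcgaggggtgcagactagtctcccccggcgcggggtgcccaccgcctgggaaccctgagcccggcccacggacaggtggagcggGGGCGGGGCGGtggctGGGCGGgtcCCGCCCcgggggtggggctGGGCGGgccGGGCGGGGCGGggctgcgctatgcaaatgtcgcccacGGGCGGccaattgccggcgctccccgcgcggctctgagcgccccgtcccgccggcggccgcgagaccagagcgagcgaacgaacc

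A gene was called higher or lower where its adjusted p was under 0.05 in edgeR's quasi-likelihood test, with Benjamini-Hochberg adjustment over the 14630 genes tested. Of the 50 members 37 passed the filter on low counts, and 31 of these reached its level of 0.589 CPM in every library of all 3 groups. NEO1, PLXNC1, SEMA3E and SEMA4G reached it throughout in 1 group only, and SEMA3G and UNC5C in 2 groups, so their passing the filter and their differences are linked. The counts below are therefore descriptions. The other 13 members were too low to test, at 11 counts or fewer in any library. They were DCC, NTN3, NTN5, PLXNA4, ROBO2, ROBO3, ROBO4, SEMA5A, SEMA5B, SEMA6A, SEMA6D, SLIT1 and UNC5D.

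In Pt-resistant over naive cells 11 tested members rose, 18 fell and 8 did not pass. That is 78.4% of the members, against 59.1% of all tested genes. At least 2-fold changes were found in 37.8% of the members (6 higher and 8 lower), against 15.9% of all tested genes (6.73% higher and 9.13% lower). The median size of the log2 fold change was 0.85 over the members and 0.39 over all tested genes. In 29 of the 37 members the Pt-resistant and naive libraries did not overlap, against 62.5% of all tested genes. Of the 20 tested ligands 3 rose and 14 fell, whereas of the 15 tested receptors 7 rose and 3 fell, beside 29.8% of all tested genes higher and 29.4% lower.

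With the inhibitor in Pt-resistant cells 17 members rose, 11 fell and 9 did not pass, 75.7% called against 62.4% of all tested genes. Changes of at least 2-fold were found in 29.7% of the members (8 higher and 3 lower), against 17.9% of all (11.4% higher and 6.51% lower). The libraries did not overlap in 31 of the 37 members, against 66.5% of all. Of the ligands 10 rose and 4 fell, and of the receptors 6 rose and 6 fell, beside 31.9% of all tested genes higher and 30.5% lower. In inhibitor-treated over naive cells 9 members rose, 16 fell and 12 did not pass, 67.6% called against 63.4% of all (32.2% higher and 31.2% lower). The 2-fold share was 45.9% (6 higher and 11 lower), against 19.8% of all (10.7% higher and 9.15% lower), and 29 members did not overlap, against 66.4% of all. The comparisons share libraries: the Pt-resistant libraries stand in both of the first 2, so a value that is high there by chance pushes them in opposite directions. Their values are given side by side only.

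**Figure D1:**
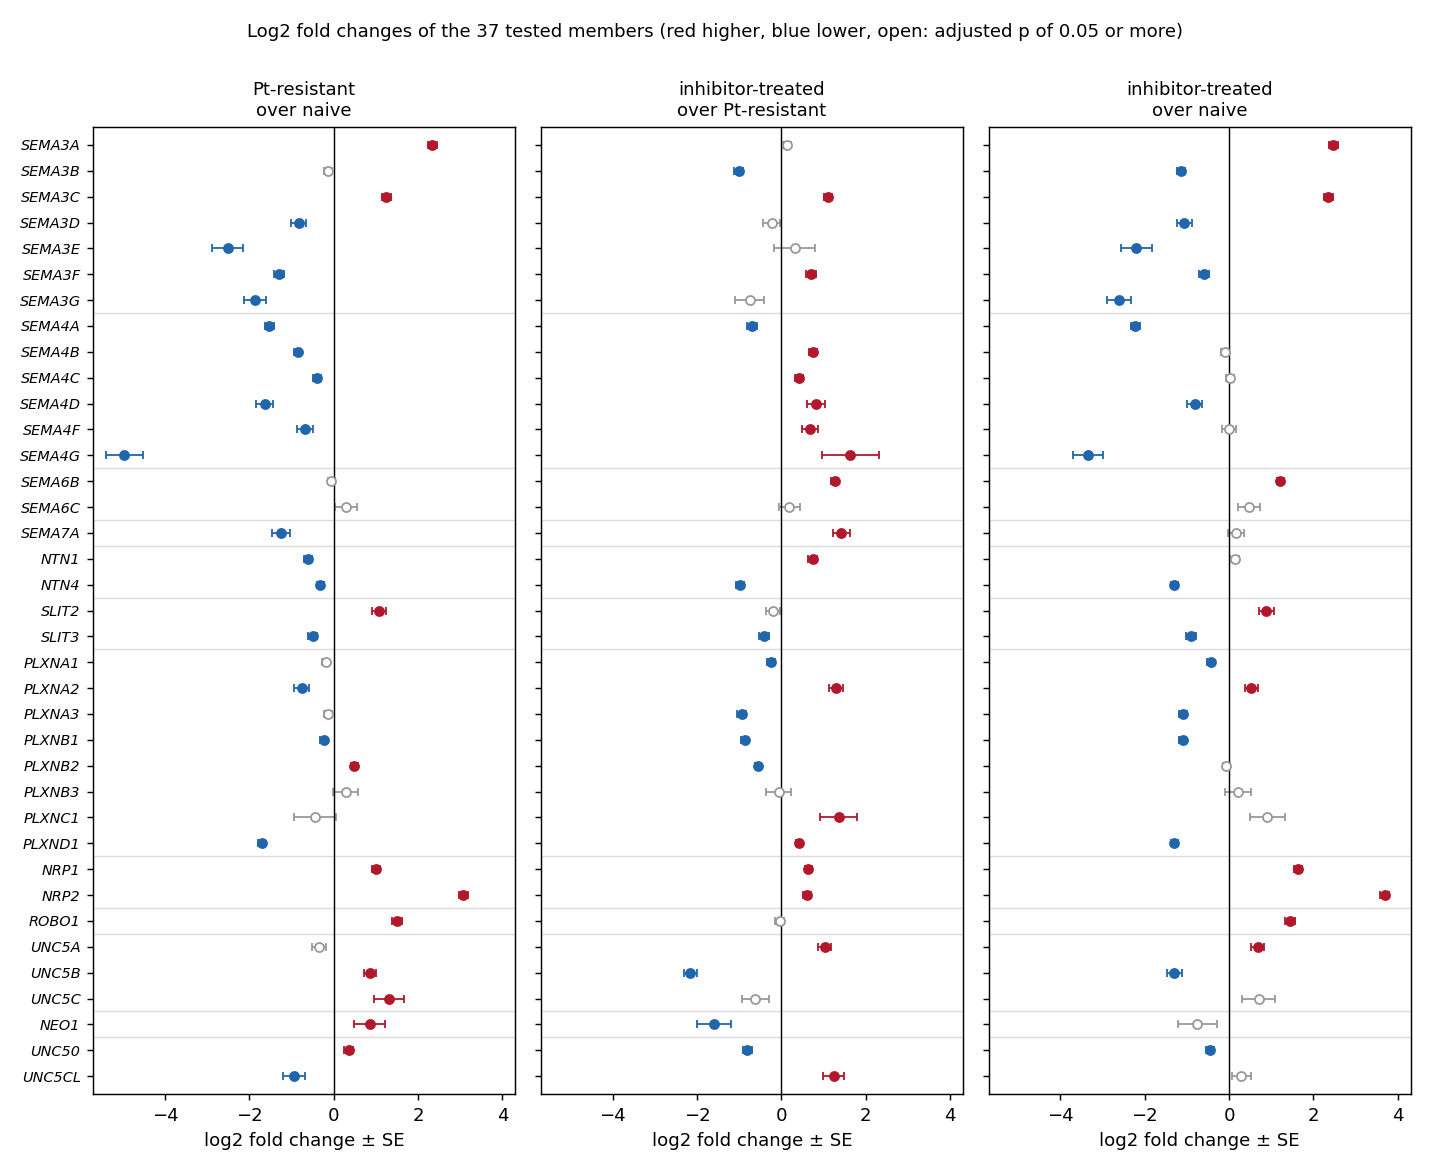
Log2 fold change (x axis, bars are the standard error) of the 37 tested members (y axis, grouped by family) in Pt-resistant over naive, inhibitor-treated over Pt-resistant and inhibitor-treated over naive cells. Filled red points are higher and filled blue points lower at an adjusted p under 0.05, and open points did not pass. NRP2 lies furthest right at 3.08 in Pt-resistant over naive cells and SEMA4G furthest left at -4.97.

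The sum over all 50 members was nearly level, at 1231 ± 76.5 CPM in inhibitor-treated, 1294 ± 21.3 CPM in Pt-resistant and 1310.3 ± 30.0 CPM in naive cells (SD, n = 3). Class 3 semaphorins together stood at 223 ± 13.5, 168 ± 3.14 and 128.0 ± 2.56 CPM in inhibitor-treated, Pt-resistant and naive cells. The neuropilins that bind them came to 145 ± 9.86 CPM in inhibitor-treated, 94.3 ± 2.69 CPM in Pt-resistant and 24.5 ± 3.09 CPM in naive cells. Both sums were separate in all 3 groups, and were highest with the inhibitor. Class 4 semaphorins were lowest in Pt-resistant cells, with 95.4 ± 4.76 CPM in inhibitor-treated, 71.7 ± 3.69 CPM in Pt-resistant and 133 ± 4.17 CPM in naive cells. The plexins summed to 564 ± 48.5, 744 ± 23.3 and 809 ± 29.8 CPM in the same order. Single class 3 semaphorins and plexins went both ways in Pt-resistant over naive cells, as given below. Per kilobase of exon, PLXNB2 had the highest level of all members in every group, with 45.1, 66.2 and 47.3 CPM per kb in inhibitor-treated, Pt-resistant and naive cells. The second place differed between groups, with SEMA3C at 18.4 CPM per kb in inhibitor-treated, UNC50 at 19.06 CPM per kb in Pt-resistant and PLXND1 at 25.5 CPM per kb in naive cells.

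**Figure D2:**
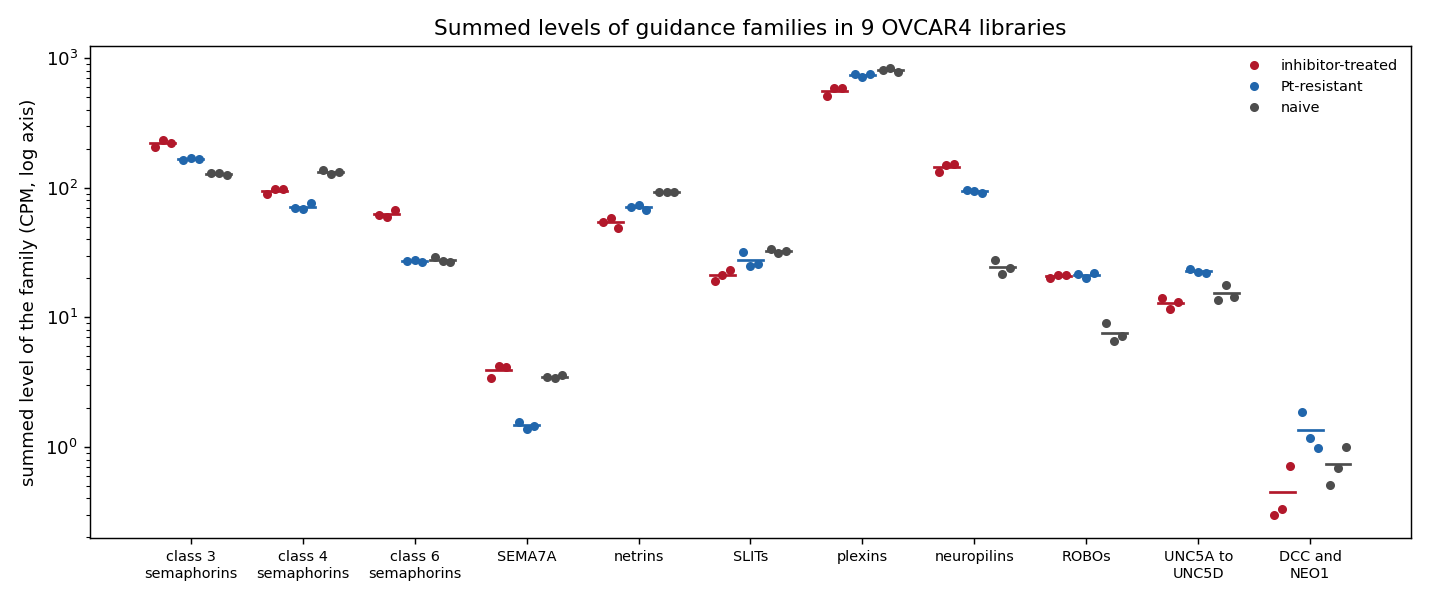
Summed level of each family in CPM (log y axis) by family (x axis), with a point for each of the 3 inhibitor-treated, Pt-resistant and naive libraries and a line at the group mean. Neuropilins and class 3 semaphorins are lowest in naive libraries, at means of 24.5 and 128.0 CPM, while plexins are highest there, at 809 CPM.

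Among the class 3 semaphorins, the secreted ligands of neuropilin and plexin complexes, SEMA3A and SEMA3C rose in Pt-resistant cells while SEMA3D, SEMA3E, SEMA3F and SEMA3G fell. SEMA3A, the collapse factor of sensory growth cones and a ligand of NRP1, had 55.5, 62 and 56.6 CPM in inhibitor-treated, 57, 47.8 and 53.3 CPM in Pt-resistant and 9.6, 12.4 and 9.39 CPM in naive libraries. All Pt-resistant libraries lay above all naive ones, and inhibitor-treated and Pt-resistant libraries overlapped. The log2 fold change was 2.34 ± 0.11 in Pt-resistant over naive cells (SE, edgeR adjusted p = 1.56e-14), and with the inhibitor it was 0.14 ± 0.09 (adjusted p = 0.201). SEMA3C, a ligand of both neuropilins known to promote migration and invasion in tumour cells, had 103, 122 and 121 CPM in inhibitor-treated, 46.9, 61 and 52.5 CPM in Pt-resistant and 20.6, 22 and 25.3 CPM in naive libraries. The 3 groups were separate from each other, with inhibitor-treated libraries highest and naive lowest. SEMA3C was higher by 1.24 ± 0.11 (log2) in Pt-resistant than in naive cells (SE, edgeR adjusted p = 5.51e-10) and by a further 1.11 ± 0.10 with the inhibitor (adjusted p = 9.19e-10). SEMA3A and SEMA3C were higher in inhibitor-treated than in naive cells, by 2.47 ± 0.11 and 2.35 ± 0.10.

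SEMA3F, a ligand of NRP2 known as a repellent of tumour cells and vessels, had 24.5, 25.5 and 23.5 CPM in inhibitor-treated, 12.9, 18.9 and 13.6 CPM in Pt-resistant and 41.1, 34.4 and 35.7 CPM in naive libraries. Naive libraries were highest and Pt-resistant lowest, with no overlap between any of the groups. The log2 fold change was -1.29 ± 0.12 in Pt-resistant over naive cells (SE, edgeR adjusted p = 2.03e-09) and 0.69 ± 0.12 with the inhibitor (adjusted p = 2.74e-05). SEMA3B, its neighbour on chromosome 3 and likewise known as a candidate tumour suppressor, had 21.4, 21.4 and 17.8 CPM in inhibitor-treated, 42.3, 38 and 41.9 CPM in Pt-resistant and 46.7, 48.1 and 38.8 CPM in naive libraries. Pt-resistant and naive libraries overlapped, while every inhibitor-treated library was below both. SEMA3B did not pass in Pt-resistant over naive cells (-0.13 ± 0.10, SE, edgeR adjusted p = 0.251) and fell by 1.01 ± 0.10 with the inhibitor (adjusted p = 8.87e-09). GNAT1, SLC38A3 and GNAI2 are the protein-coding genes between SEMA3F and SEMA3B in GENCODE 29.

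The other class 3 members were low. SEMA3D had 3.14, 3.87 and 3.93 CPM in inhibitor-treated, 4.45, 4.1 and 4.31 CPM in Pt-resistant and 5.68, 8.04 and 9.2 CPM in naive libraries, highest in naive libraries, and changed by -0.83 ± 0.17 in Pt-resistant over naive cells (SE, edgeR adjusted p = 0.000257). SEMA3G, known from endothelium as a ligand of NRP2, had 0.533, 0.601 and 0.715 CPM in inhibitor-treated, 0.962, 0.905 and 1.25 CPM in Pt-resistant and 3.81, 2.96 and 4.66 CPM in naive libraries. Naive libraries again lay above the others, with a log2 fold change of -1.87 ± 0.25 in Pt-resistant over naive cells (SE, edgeR adjusted p = 1e-06). SEMA3E, which binds PLXND1 without a neuropilin, averaged 0.406 ± 0.12 CPM in inhibitor-treated, 0.325 ± 0.124 CPM in Pt-resistant and 1.89 ± 0.392 CPM in naive cells (SD, n = 3) and fell by 2.51 ± 0.37 in Pt-resistant over naive cells (edgeR adjusted p = 3.27e-06). Its counts summed to 20, 18 and 92 over the inhibitor-treated, Pt-resistant and naive libraries. Only the naive libraries all reached the filter level. None of these 3 passed with the inhibitor, with log2 fold changes of -0.23 ± 0.19 for SEMA3D, -0.75 ± 0.35 for SEMA3G and 0.31 ± 0.49 for SEMA3E (SE).

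Class 3 genes that lie next to each other differed in direction. SEMA3C, SEMA3E, SEMA3A and SEMA3D follow each other in that order on chromosome 7, with 3 protein-coding genes (HGF, CACNA2D1 and PCLO) between SEMA3C and SEMA3E and none between the other neighbours. In Pt-resistant over naive cells their log2 fold changes along the chromosome were 1.24, -2.51, 2.34 and -0.83, so genes that rose alternated with genes that fell. In inhibitor-treated over naive cells, a comparison that shares its naive libraries with the other, the values were 2.35, -2.20, 2.47 and -1.06.

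Class 4 semaphorins are membrane proteins that can be shed, and they bind mainly B plexins. All 6 fell in Pt-resistant over naive cells, beside 29.4% of all tested genes lower. With the inhibitor SEMA4B, SEMA4C, SEMA4D, SEMA4F and SEMA4G rose and SEMA4A fell, beside 31.9% of all tested genes higher and 30.5% lower. SEMA4A, best known from T cells and the retina, had 7.1, 9.02 and 7.86 CPM in inhibitor-treated, 13.3, 12 and 13.5 CPM in Pt-resistant and 38.1, 38.8 and 35.1 CPM in naive libraries. The groups did not overlap, with the inhibitor-treated libraries lowest and the naive highest. Its log2 fold change was -1.53 ± 0.10 in Pt-resistant over naive cells (SE, edgeR adjusted p = 8.84e-12) and -0.70 ± 0.12 with the inhibitor (adjusted p = 1.7e-05). SEMA4D, the ligand of PLXNB1 known for promoting tumour vessels, had 2.9, 3.54 and 3.81 CPM in inhibitor-treated, 1.56, 2.13 and 2.08 CPM in Pt-resistant and 6.87, 4.81 and 6.3 CPM in naive libraries. Pt-resistant libraries lay below both of the other groups, with -1.64 ± 0.20 over naive cells (SE, edgeR adjusted p = 2.28e-07) and 0.82 ± 0.22 with the inhibitor (adjusted p = 0.00221).

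SEMA4G, a member about which less is known, had 0.355, 0.20 and 0.655 CPM in inhibitor-treated, 0, 0.16 and 0.208 CPM in Pt-resistant and 3.35, 5.22 and 4.16 CPM in naive libraries. Naive libraries were clearly apart, while the inhibitor-treated and Pt-resistant libraries overlapped near 0 with 20 and 7 counts in all. Only the naive libraries all reached the filter level, so the passing of SEMA4G and its fall are linked. The log2 fold change was -4.97 ± 0.44 in Pt-resistant over naive cells (SE, edgeR adjusted p = 1.02e-09), the largest of any member. With the inhibitor it was 1.63 ± 0.68 (adjusted p = 0.04), which no longer passed when leaving out Pt-resistant replicate 1 (1.13, adjusted p = 0.139), Pt-resistant replicate 2 (1.82, adjusted p = 0.0552), inhibitor-treated replicate 1 (1.73, adjusted p = 0.0539) or inhibitor-treated replicate 3 (1.10, adjusted p = 0.246). Exons of MRPL43 and AL133215.1 on the opposite strand cover 27.4% of the exon length of SEMA4G, and its level is uncertain because the strand setting of the counting is not known here. MRPL43 averaged 36.7 ± 2.06 CPM in inhibitor-treated, 27.4 ± 1.36 CPM in Pt-resistant and 33.6 ± 2.33 CPM in naive cells (SD, n = 3).

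The other class 4 members changed less in Pt-resistant over naive cells. SEMA4B averaged 31.7 ± 1.73 CPM in inhibitor-treated, 18.8 ± 0.697 CPM in Pt-resistant and 34.1 ± 1.56 CPM in naive cells, SEMA4C, a ligand of PLXNB2, averaged 44.5 ± 1.24 CPM in inhibitor-treated, 33.3 ± 1.46 CPM in Pt-resistant and 43.6 ± 5.23 CPM in naive cells, and SEMA4F averaged 7.43 ± 1.39 CPM in inhibitor-treated, 4.61 ± 1.28 CPM in Pt-resistant and 7.4 ± 0.771 CPM in naive cells (SD, n = 3). In each of them the Pt-resistant libraries lay below all naive libraries. Their log2 fold changes in Pt-resistant over naive cells were -0.86 ± 0.09, -0.39 ± 0.09 and -0.68 ± 0.18 (SE), and with the inhibitor 0.75 ± 0.09, 0.42 ± 0.09 and 0.67 ± 0.18. None of the 3 passed in inhibitor-treated over naive cells, at -0.10 ± 0.09, 0.03 ± 0.09 and 0.00 ± 0.17 (SE).

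Class 5 was not measurable, with 3 counts of SEMA5A in all and 33 of SEMA5B. In class 6, transmembrane ligands of A plexins, SEMA6A and SEMA6D were too low to test. SEMA6B had 59.4, 58.3 and 64.9 CPM in inhibitor-treated, 25.1, 26.1 and 24.6 CPM in Pt-resistant and 28, 25.2 and 25.5 CPM in naive libraries. All inhibitor-treated libraries lay far above the other 2 groups, which overlapped. SEMA6B rose by 1.27 ± 0.09 on the log2 scale with the inhibitor (SE, edgeR adjusted p = 1.04e-11), whereas Pt-resistant over naive cells gave -0.05 ± 0.09 (adjusted p = 0.619). SEMA6C averaged 1.91 ± 0.101 CPM in inhibitor-treated, 1.68 ± 0.295 CPM in Pt-resistant and 1.39 ± 0.287 CPM in naive cells (SD, n = 3) and passed in no comparison. SEMA7A, which is held in the membrane by a lipid anchor and signals through integrins and PLXNC1, had 3.43, 4.21 and 4.17 CPM in inhibitor-treated, 1.56, 1.38 and 1.45 CPM in Pt-resistant and 3.47, 3.44 and 3.59 CPM in naive libraries. Pt-resistant libraries were lowest and the other groups overlapped, with -1.25 ± 0.21 in Pt-resistant over naive cells (SE, edgeR adjusted p = 2.07e-05) and 1.42 ± 0.21 with the inhibitor (adjusted p = 2.72e-06).

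**Figure D3:**
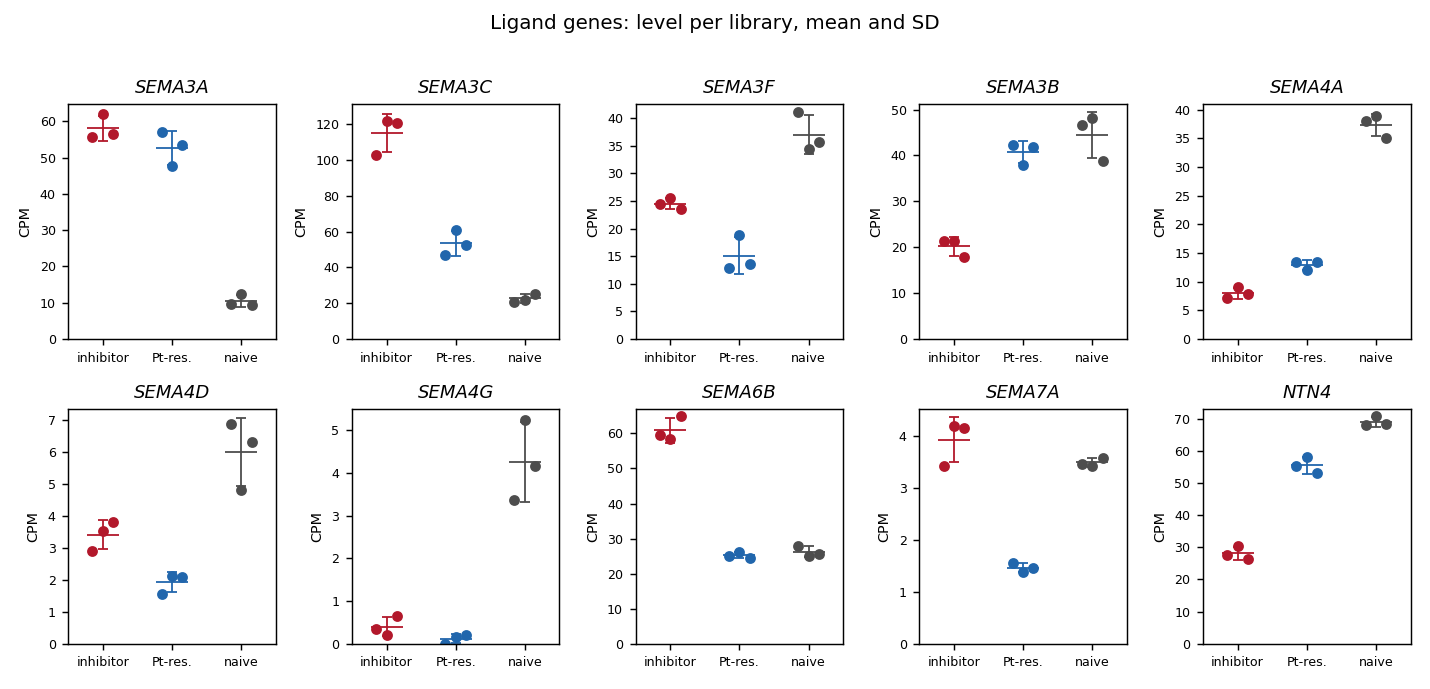
Level in CPM (y axis, from 0) of 10 ligand genes in inhibitor-treated, Pt-resistant and naive libraries (x axis), with a point for each library and the mean and SD of 3 libraries. SEMA3A and SEMA3C are lowest in naive libraries, SEMA4A is highest there at a mean of 37.3 CPM, and SEMA6B is apart only in inhibitor-treated libraries at 60.9 CPM.

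SLIT2, the ligand of ROBO1 known as a repellent and often silenced in cancers, had 5.15, 5.88 and 5.72 CPM in inhibitor-treated, 7.15, 5.91 and 6.18 CPM in Pt-resistant and 2.61, 3.64 and 2.9 CPM in naive libraries. Naive libraries were lowest, and SLIT2 rose by 1.08 ± 0.17 in Pt-resistant over naive cells (SE, edgeR adjusted p = 9.15e-06). The inhibitor comparison gave -0.20 ± 0.16 (adjusted p = 0.275). SLIT3 went the other way and averaged 15.6 ± 1.74 CPM in inhibitor-treated, 20.7 ± 3.13 CPM in Pt-resistant and 29.1 ± 1.96 CPM in naive cells (SD, n = 3). It fell by 0.50 ± 0.11 in Pt-resistant over naive cells and by 0.41 ± 0.12 with the inhibitor, and SLIT1 was too low to test.

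NTN1, the founding netrin and the survival ligand of UNC5 receptors, averaged 25.6 ± 3.13 CPM in inhibitor-treated, 15.3 ± 0.547 CPM in Pt-resistant and 23.4 ± 1.08 CPM in naive cells (SD, n = 3). It was lowest in every Pt-resistant library, with -0.61 ± 0.10 over naive cells (SE, edgeR adjusted p = 2.24e-05) and 0.74 ± 0.10 with the inhibitor (adjusted p = 1.31e-06). NTN4, a basement membrane protein that binds laminin, had 27.7, 30.3 and 26.3 CPM in inhibitor-treated, 55.4, 58.1 and 52.9 CPM in Pt-resistant and 67.9, 70.7 and 68.3 CPM in naive libraries. The 3 groups were separate, with naive libraries highest and inhibitor-treated lowest. NTN4 fell by 0.31 ± 0.08 in Pt-resistant over naive cells (edgeR adjusted p = 0.00158) and by 0.98 ± 0.08 with the inhibitor (adjusted p = 5.67e-10). NTN3 and NTN5 had 3 and 44 counts over the 9 libraries.

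Both neuropilins, the co-receptors of class 3 semaphorins and of VEGF, rose in all 3 comparisons. NRP2 had 79.3, 92.9 and 98.5 CPM in inhibitor-treated, 60.8, 59.4 and 57.1 CPM in Pt-resistant and 7.78, 6.39 and 6.74 CPM in naive libraries. The groups were separate, with the naive libraries far below the others. NRP2 was higher by 3.08 ± 0.11 (log2) in Pt-resistant than in naive cells, or 8.43-fold (SE, edgeR adjusted p = 9.17e-17), and by 0.61 ± 0.09 with the inhibitor (adjusted p = 1.83e-06). NRP1 had 54.4, 56.1 and 53.6 CPM in inhibitor-treated, 36, 35.1 and 34.4 CPM in Pt-resistant and 20.1, 15.3 and 17.3 CPM in naive libraries. Again no groups overlapped, with 1.00 ± 0.10 in Pt-resistant over naive cells (SE, edgeR adjusted p = 5.03e-09) and 0.64 ± 0.09 with the inhibitor (adjusted p = 1.41e-06). Per kilobase of exon NRP1 was below NRP2 in inhibitor-treated cells, at 4.75 against 6.49 CPM per kb, and in Pt-resistant cells, at 3.05 against 4.25 CPM per kb, and above it in naive cells, at 1.52 against 0.502 CPM per kb.

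Plexins are the signalling receptors of semaphorins, and 8 of the 9 were tested. In Pt-resistant over naive cells 1 rose (PLXNB2) and 3 fell (PLXNA2, PLXNB1 and PLXND1), 50% called against 59.1% of all tested genes. With the inhibitor 3 rose and 4 fell, 87.5% called against 62.4%. PLXND1, the endothelial receptor of SEMA3E, had 92, 108 and 104 CPM in inhibitor-treated, 79.5, 74.3 and 74.1 CPM in Pt-resistant and 249, 253 and 244 CPM in naive libraries. Naive libraries lay far above the others, and the inhibitor-treated libraries above the Pt-resistant ones. PLXND1 fell by 1.71 ± 0.08 in Pt-resistant over naive cells (edgeR adjusted p = 1.21e-14) and rose by 0.42 ± 0.08 with the inhibitor (SE, adjusted p = 7.27e-05). It was still lower in inhibitor-treated than in naive cells, at -1.30 ± 0.08 (SE). PECAM1, known as an endothelial marker, averaged 43.7 CPM in inhibitor-treated, 57.4 CPM in Pt-resistant and 95.4 CPM in naive cells. CDH5 averaged 46.7, 67.9 and 48.4 CPM in the same order, while CLDN5 was at 0 throughout. TIE1 averaged 4.71, 5.56 and 8.87 CPM, VWF 1.65, 1.02 and 2.65 CPM, and KDR 0.715, 0.714 and 1.16 CPM. Of the 5 tested endothelial markers 3 were lower and 1 higher in Pt-resistant over naive cells. Of all tested genes 29.4% were lower and 29.8% higher in that comparison. All libraries came from cultures of OVCAR4, and how these markers relate to the PLXND1 values was not tested.

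PLXNB2, a receptor of SEMA4C and the most abundant member per kilobase, averaged 327 ± 31.5 CPM in inhibitor-treated, 481 ± 9.26 CPM in Pt-resistant and 343 ± 13.7 CPM in naive cells (SD, n = 3). Every Pt-resistant library lay above all others, with 0.49 ± 0.08 over naive cells (SE, edgeR adjusted p = 1.18e-05) and -0.55 ± 0.08 with the inhibitor (adjusted p = 1.77e-06). PLXNB1, the receptor of SEMA4D, had 38.8, 40.3 and 46 CPM in inhibitor-treated, 75.5, 71.2 and 81.2 CPM in Pt-resistant and 90.4, 90.9 and 86.4 CPM in naive libraries. Inhibitor-treated libraries were far below both other groups, and the log2 fold change with the inhibitor was -0.86 ± 0.08 (SE, edgeR adjusted p = 5.21e-09). In Pt-resistant over naive cells it was -0.23 ± 0.08 (adjusted p = 0.0172), and without Pt-resistant replicate 2 it was -0.19 (adjusted p = 0.0788). PLXNB3, of which 20.4% of the exon length is shared with SRPK3 on the same strand, averaged 1.3 ± 0.324 CPM in inhibitor-treated, 1.37 ± 0.299 CPM in Pt-resistant and 1.13 ± 0.0497 CPM in naive cells (SD, n = 3) and passed in no comparison.

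The A plexins, partners of the neuropilins, did not move as one. PLXNA2 had 9.41, 9.82 and 11.6 CPM in inhibitor-treated, 5.05, 4.15 and 3.48 CPM in Pt-resistant and 6.65, 8.8 and 5.98 CPM in naive libraries. Pt-resistant libraries were lowest and inhibitor-treated highest, with -0.76 ± 0.17 in Pt-resistant over naive cells (SE, edgeR adjusted p = 0.000638) and 1.29 ± 0.17 with the inhibitor (adjusted p = 4.37e-07). PLXNA3 had 12.1, 11.6 and 12.9 CPM in inhibitor-treated, 24.7, 22.1 and 23.8 CPM in Pt-resistant and 26, 28 and 24 CPM in naive libraries. It was lower in every inhibitor-treated library than in any other, with -0.95 ± 0.10 with the inhibitor (SE, edgeR adjusted p = 2.79e-08) and -0.14 ± 0.10 in Pt-resistant over naive cells (adjusted p = 0.201). PLXNA1 averaged 69.1 ± 6.34 CPM in inhibitor-treated, 81.8 ± 7.18 CPM in Pt-resistant and 93.4 ± 5.75 CPM in naive cells (SD, n = 3) and changed by -0.24 ± 0.09 with the inhibitor (SE, edgeR adjusted p = 0.0182). It no longer passed when leaving out Pt-resistant replicate 1 (-0.18, adjusted p = 0.0964), Pt-resistant replicate 3 (-0.24, adjusted p = 0.0505) or inhibitor-treated replicate 1 (-0.17, adjusted p = 0.137). Over naive cells PLXNA1 did not pass in Pt-resistant cells (-0.19 ± 0.09, adjusted p = 0.0585), but did without naive replicate 3 (-0.24, adjusted p = 0.0376) or without Pt-resistant replicate 1 (-0.26, adjusted p = 0.0182). PLXNA4 had 3 counts, all in inhibitor-treated libraries.

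PLXNC1, the receptor of SEMA7A, was near the limit of the filter at 0.90 ± 0.144 CPM in inhibitor-treated, 0.359 ± 0.225 CPM in Pt-resistant and 0.478 ± 0.0353 CPM in naive cells (SD, n = 3). It rose by 1.35 ± 0.43 with the inhibitor (SE, edgeR adjusted p = 0.00894), and without Pt-resistant replicate 3 the value was 0.98 (adjusted p = 0.0675). Only the inhibitor-treated libraries all reached the filter level, so its passing the filter and this rise are linked.

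ROBO1, the receptor of SLIT2, was the only ROBO gene tested and had 19.2, 20.9 and 20.9 CPM in inhibitor-treated, 21.2, 20 and 21.7 CPM in Pt-resistant and 8.69, 6.26 and 7.18 CPM in naive libraries. Inhibitor-treated and Pt-resistant libraries overlapped, and both lay above all naive libraries. ROBO1 rose by 1.497 ± 0.12 in Pt-resistant over naive cells (SE, edgeR adjusted p = 1.69e-10) and by 1.45 ± 0.12 in inhibitor-treated over naive cells (adjusted p = 2.26e-10), and the inhibitor comparison gave -0.04 ± 0.11 (adjusted p = 0.74). ROBO4, the endothelial member, had 1 count over all 9 libraries. ROBO3 had 21 counts in inhibitor-treated, 9 in Pt-resistant and 1 in naive libraries, and ROBO2 had 15 in all.

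The netrin receptors differed from one another. UNC5B, known as a p53 target and a dependence receptor on vessels, had 4.56, 3.21 and 3.87 CPM in inhibitor-treated, 17.9, 17.3 and 17 CPM in Pt-resistant and 8.52, 12.5 and 7.94 CPM in naive libraries. Pt-resistant libraries were highest and inhibitor-treated lowest, without overlap. UNC5B rose by 0.86 ± 0.14 in Pt-resistant over naive cells (SE, edgeR adjusted p = 1.52e-05) and fell by 2.16 ± 0.16 with the inhibitor, 4.46-fold lower (adjusted p = 5.72e-11), the largest decrease of any member with the inhibitor. UNC5B was lower in inhibitor-treated than in naive cells as well, at -1.30 ± 0.17 (SE). UNC5A had 8.82, 7.48 and 8.52 CPM in inhibitor-treated, 4.51, 3.57 and 4.1 CPM in Pt-resistant and 4.83, 4.74 and 5.92 CPM in naive libraries. Here the inhibitor-treated libraries were highest, with 1.03 ± 0.15 with the inhibitor (SE, edgeR adjusted p = 3.75e-06). UNC5A did not pass in Pt-resistant over naive cells (-0.35 ± 0.16, adjusted p = 0.071), but did without Pt-resistant replicate 1 (-0.44, adjusted p = 0.0488).

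UNC5C averaged 0.787 ± 0.129 CPM in inhibitor-treated, 1.21 ± 0.204 CPM in Pt-resistant and 0.484 ± 0.0781 CPM in naive cells (SD, n = 3) and rose by 1.32 ± 0.36 in Pt-resistant over naive cells (SE, edgeR adjusted p = 0.00275). NEO1, neogenin, was low at 0.428 ± 0.197 CPM in inhibitor-treated, 1.34 ± 0.462 CPM in Pt-resistant and 0.736 ± 0.252 CPM in naive cells, or 21, 72 and 35 counts (SD, n = 3). With the inhibitor it fell by 1.60 ± 0.41 (edgeR adjusted p = 0.00152), and every inhibitor-treated library was below every Pt-resistant one. Only in Pt-resistant cells did NEO1 reach the filter level in every library, so its passing the filter and this fall are linked. Its call as higher in Pt-resistant over naive cells (0.85 ± 0.37, adjusted p = 0.0499) lay at the threshold, the libraries overlapped, and it no longer passed when leaving out naive replicate 1 (0.63, adjusted p = 0.209), naive replicate 2 (0.81, adjusted p = 0.106), Pt-resistant replicate 1 (0.55, adjusted p = 0.264), Pt-resistant replicate 2 (0.93, adjusted p = 0.0597), inhibitor-treated replicate 1 (0.85, adjusted p = 0.0539) or inhibitor-treated replicate 2 (0.86, adjusted p = 0.0572). It was also lost under other scalings and tools. DCC and UNC5D each had 1 count in the 9 libraries.

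**Figure D4:**
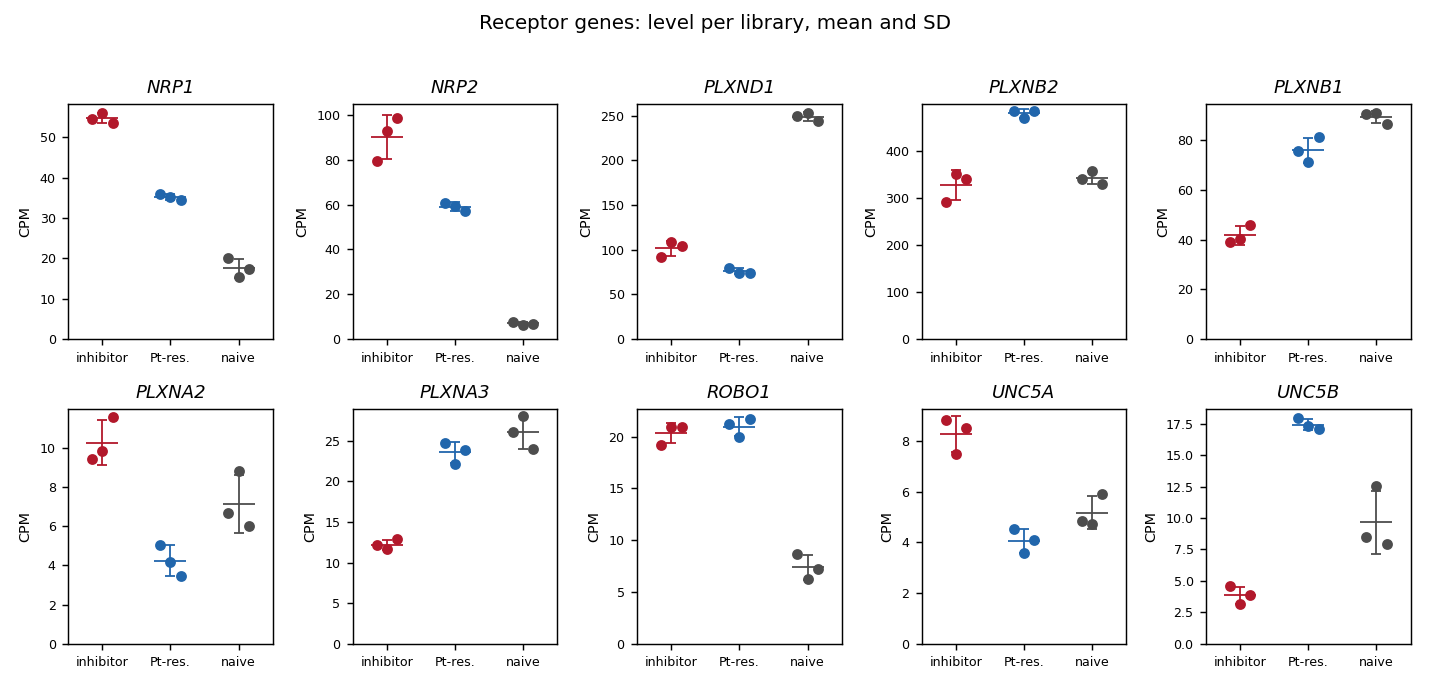
Level in CPM (y axis, from 0) of 10 receptor genes in inhibitor-treated, Pt-resistant and naive libraries (x axis), with a point for each library and the mean and SD of 3 libraries. NRP1, NRP2 and ROBO1 are lowest in naive libraries, PLXND1 is highest there at a mean of 249 CPM, and UNC5B is lowest with the inhibitor at 3.88 CPM.

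Set beside their known partners, ligands and receptors did not always go the same way in Pt-resistant over naive cells. SEMA3A and NRP1 both rose, by 2.34 and 1.00, and SLIT2 and ROBO1 both rose, by 1.08 and 1.497. SEMA3F fell, at -1.29, while its co-receptor NRP2 rose by 3.08. SEMA3E and PLXND1 both fell, at -2.51 and -1.71, and so did SEMA4D and PLXNB1, at -1.64 and -0.23. NTN1 fell, at -0.61, and UNC5B rose by 0.86. With the inhibitor SEMA4D and PLXNB1 parted, at 0.82 and -0.86, and NTN1 and UNC5B likewise, at 0.74 and -2.16. SEMA3F and NRP2 both rose, by 0.69 and 0.61. NRP1 rose by 0.64 and PLXND1 by 0.42, while SEMA3A and SEMA3E did not pass. Neither SLIT2 nor ROBO1 passed with the inhibitor, at -0.20 and -0.04. These are mRNA levels on the log2 scale, and binding of the proteins was not measured.

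The genes taken by letters only were UNC50, a Golgi membrane protein, and UNC5CL, a death domain protein. UNC50 averaged 24.3 ± 1.89 CPM in inhibitor-treated, 42.5 ± 5.18 CPM in Pt-resistant and 33.3 ± 1.91 CPM in naive cells (SD, n = 3), with 0.35 ± 0.10 in Pt-resistant over naive cells and -0.80 ± 0.10 with the inhibitor. UNC5CL had 2.72, 2.81 and 3.16 CPM in inhibitor-treated, 1.26, 0.799 and 1.61 CPM in Pt-resistant and 2.67, 2.27 and 2.14 CPM in naive libraries. It was lowest in Pt-resistant libraries, with -0.95 ± 0.26 in Pt-resistant over naive cells (SE, edgeR adjusted p = 0.00335) and 1.24 ± 0.25 with the inhibitor (adjusted p = 0.000182). Of its exon length 23.8% is shared with OARD1 on the same strand, so its count is uncertain. Without these 2 genes 10 of 35 tested members rose and 17 fell in Pt-resistant over naive cells.

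A list of 36 genes acting inside the cell below plexins, ROBO receptors and DCC had 31 tested. In Pt-resistant over naive cells 7 rose and 10 fell, 54.8%, close to the 59.1% of all tested genes, with a median log2 fold change of -0.06 against 0.01 for all. ENAH, an actin regulator whose Drosophila homologue Ena binds Robo, rose by 0.87 ± 0.09 (SE), RND3, a small GTPase that acts on the actin cytoskeleton, by 0.83 ± 0.14, and RRAS2, a Ras family GTPase, by 0.69 ± 0.08. MRAS, a further Ras family GTPase, averaged 68.0 ± 5.45 CPM in inhibitor-treated, 33.4 ± 2.94 CPM in Pt-resistant and 75.5 ± 4.17 CPM in naive cells (SD, n = 3). DPYSL2, the collapsin response mediator downstream of SEMA3A, averaged 26.6 ± 2.28, 15 ± 2.41 and 28.3 ± 1.51 CPM in the same order. MRAS and DPYSL2 thus fell in Pt-resistant over naive cells, by 1.18 ± 0.09 and 0.92 ± 0.11, and SRGAP3, a Rac-inactivating partner of ROBO receptors, fell by 0.51 ± 0.19.

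With the inhibitor 11 of the 31 rose and 5 fell, 51.6% against 62.4% of all tested genes, with MRAS up by 1.03 ± 0.09 (SE), DPYSL2 by 0.83 ± 0.11 and SRGAP2 by 0.79 ± 0.10. ENAH fell by 0.61 ± 0.09, the actin-binding ABLIM1 by 0.51 ± 0.09 and RND3 by 0.48 ± 0.14. In inhibitor-treated over naive cells 13 rose and 6 fell, 61.3% against 63.4%, and RRAS2 at 1.01 ± 0.08, the exchange factor TRIO at 0.60 ± 0.10 and SRGAP2 at 0.57 ± 0.10 were higher. ABLIM1 at -0.995 ± 0.09, the kinase FYN at -0.57 ± 0.13 and FARP1, an exchange factor with a FERM domain, at -0.47 ± 0.08 were lower.

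A second list held 29 further ligands, co-receptors and sheddases, 21 of them tested. In Pt-resistant over naive cells 6 rose and 8 fell, 66.7% against 59.1%, with a median log2 fold change of -0.13. ITGA1, the integrin subunit through which SEMA7A signals together with ITGB1, rose by 1.34 ± 0.12 (SE), L1CAM by 0.44 ± 0.08 and VEGFA by 0.36 ± 0.08. PGF, a ligand of the VEGF family that binds neuropilins, averaged 7.72 ± 0.49 CPM in inhibitor-treated, 1.54 ± 0.25 CPM in Pt-resistant and 7.82 ± 0.85 CPM in naive cells (SD, n = 3). It fell by 2.33 ± 0.18 in Pt-resistant over naive cells, FLRT3, a ligand of UNC5 receptors and a partner of ROBO1, by 1.69 ± 0.17, and DAG1, dystroglycan, which binds SLITs in mice, by 1.08 ± 0.08.

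With the inhibitor 10 of the 21 rose and 5 fell, 71.4% against 62.4% of all tested genes. At a 2-fold minimum 2 were higher and 3 lower, beside 11.4% of all tested genes higher and 6.51% lower. PGF rose by 2.31 ± 0.18 (SE), RGMA, a ligand of neogenin, by 0.77 ± 0.18 and MET, a receptor kinase that associates with B plexins, by 0.76 ± 0.08. VEGFA, the ligand that competes with SEMA3A for NRP1, averaged 117 ± 0.74 CPM in inhibitor-treated, 294 ± 30.5 CPM in Pt-resistant and 229 ± 12.2 CPM in naive cells (SD, n = 3), a fall of 1.32 ± 0.08 with the inhibitor. ITGA1 fell by 1.89 ± 0.12 and ADAM17, a sheddase, by 0.36 ± 0.08. In inhibitor-treated over naive cells 8 rose and 8 fell, 76.2% against 63.4%, with MET at 0.91 ± 0.08, L1CAM at 0.74 ± 0.08 and RGMA at 0.42 ± 0.18 higher, and FLRT3 at -1.60 ± 0.17, VEGFA at -0.96 ± 0.08 and VEGFB at -0.92 ± 0.09 lower.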

How the data were processed

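RNA was read in 9 libraries of OVCAR4 cells, 3 per group, grouped by the labels. The authors ran FastQC on the reads, used STAR for alignment and gene counting, and deposited raw counts per gene. The library kit marks the strand. For the genome build and strand setting, nothing is given in the sources used here. Reads with several alignments, or over 2 genes at once, are not counted by STAR, so overlapping genes and close paralogs can be undercounted.

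Genes were named by stable Ensembl ID from a symbol table, which matched 61369 of 61487, and exon lengths and overlaps came from GENCODE 29. Counts were fitted in R 4.3.3 with edgeR 4.0.16 (filterByExpr with a minimum count of 10, TMM scaling, a single quasi-likelihood fit of the 9 libraries with no covariate, Benjamini-Hochberg adjustment over 14630 genes, threshold 0.05). The tested genes held 99.88% of all counts and the biological coefficient of variation was 7.66%. Standard errors are the log2 fold change divided by the root of F. Precision depends on the library totals of 14320929 to 19114811 counts and on the spread among replicates. No 2 replicates were alike within counting noise. The fit was tested on simulated data.

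The members, the 2 gene lists and the markers were chosen with earlier results of these data known. Values per library are given for members with at least a 2-fold change past the threshold in 1 comparison and a mean of 2 CPM in the highest group, and group means or counts for the others. From the lists, the 3 called genes with the largest change in each direction per comparison and a mean of 5 CPM were named. MRPL43, PECAM1, CDH5 and other markers are given as measured facts beside results. Alternatives were DESeq2 size factors (RLE), library size alone, DESeq2 1.42.0, limma-voom 3.58.1, other filters, only the groups compared, the replicate block, each library left out and a 2-fold minimum. No table of proteins was used here.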

Additional observations from a re-analysis of the deposited data

How the results depend on the processing

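No member past the threshold changed direction under any alternative run. Changes near 0 that did not pass have no firm direction. A 2-fold minimum, by construction, lowered the counts. Higher and lower members then numbered 6 and 8 in Pt-resistant over naive cells and 8 and 3 with the inhibitor. In the same way the intracellular list had 0 and 2, then 4 and 0, and 2 and 1 in inhibitor-treated over naive cells, and the list of other ligands and co-receptors 3 and 3, 2 and 3, and 2 and 1. Of all tested genes 6.73% were higher and 9.13% lower at this minimum, then 11.4% and 6.51%, and 10.7% and 9.15%. With each library left out in turn, 10 to 11 members were higher and 17 to 20 lower in Pt-resistant over naive cells, 16 to 17 and 10 to 11 with the inhibitor, and 9 and 16 throughout in inhibitor-treated over naive cells. The intracellular list ran at 6 to 8 higher and 7 to 11 lower in Pt-resistant over naive cells, 9 to 11 higher and 5 to 7 lower with the inhibitor and 9 to 13 higher and 5 to 7 lower in inhibitor-treated over naive cells. The other list ran at 4 to 6 higher and 7 to 9 lower in Pt-resistant over naive cells, 8 to 11 higher and 5 lower with the inhibitor and 6 to 8 higher and 7 to 8 lower in inhibitor-treated over naive cells.

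Same-numbered libraries of different groups did not deviate together, with correlations of their deviations from -0.17 to 0.17. Differently numbered libraries ran from -0.25 to 0.16. No sign of pairing by replicate number was thus seen, though 3 libraries per group cannot exclude it. With the replicate number as a block, 10 members were higher and 18 lower in Pt-resistant over naive cells, 17 and 11 with the inhibitor, and 9 and 16 in inhibitor-treated over naive cells. Over all genes the block gave 4389 higher and 4299 lower, 4677 and 4508, and 4730 and 4589 in these comparisons, against 4357 and 4294, 4669 and 4467, and 4710 and 4566 without it.

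Of the results for single members under all alternatives, 1850 kept their side of the threshold, 22 lost the threshold and 6 gained it. The increase of NEO1 in Pt-resistant over naive cells was lost in 13 alternatives, among them DESeq2 (0.86, adjusted p = 0.104), limma-voom (0.83, adjusted p = 0.0578) and scaling by library size alone (0.83, adjusted p = 0.0556). PLXNA1 in that comparison passed with library size alone (-0.22, adjusted p = 0.0376) and with only the groups compared (-0.21, adjusted p = 0.0446). PLXNC1 in inhibitor-treated over naive cells passed with only the groups compared (0.90, adjusted p = 0.0439). Members under about 1 CPM rest on few counts: those not passing at this depth may still differ.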
